A study of Rattus norvegicus with 12 samples.

Results

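Dgkh encodes diacylglycerol kinase eta, and it is described here with 8 further genes of the diacylglycerol kinase family in PC12 cells. This rat line comes from a tumour of the adrenal medulla and resembles chromaffin cells. The 9 genes were taken by symbol from the annotation of the array platform. Each had 1 feature (a transcript cluster summarised from its probes), so the family is 9 of 68842 features that are not controls. Dgkh was singled out because its level was much lower after induction, and for that difference its values are a description without a test. The other 8 genes were taken for belonging to the same family.

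The cells all carry an inducible fragment of mutant huntingtin, fused to GFP and holding 74 glutamines (GFP-mHtt-74Q), which models Huntington disease in culture. The arrays fall into 4 groups of 3. Induced cells, which received doxycycline at 1 µg/ml, were given compound 6 at 10 µM, compound 3 at 10 µM, or the vehicle DMSO, with the compound treatments lasting 48 h. Non-induced cells received DMSO and no doxycycline. The series title calls the compounds guanabenz analogues. Doxycycline and the fragment always came together, so their effects cannot be told apart, and the labels do not say whether the cells are 1 clone or whether replicates are separate cultures. The p-values therefore measure the spread between these arrays, which may be technical.

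Levels are the deposited log2 values. Levels of different genes come from different probes and were not set against each other. A feature was tested where its mean over the 12 arrays reached 4.63, the median of all feature means, which 34422 features did. Of the 9 kinase genes 7 passed this filter: Dgkh, Dgkd, Dgka, Dgkz, Dgki, Dgke and Dgkq. Dgkg and Dgkb did not. Of the chromaffin markers looked for, 9 were named on the array and all 9 passed the filter, with means from 7.31 for Gata3 to 12.31 for Chgb. Of the markers of other cell types, 4 of 4 glial markers on the array passed it (S100b at 4.85 to Foxd3 at 6.30), as did 4 of 7 for fibroblasts, 2 of 5 for blood cells and 3 of 5 for adrenal cortex. Their lowest and highest means were 2.26 (Lum) and 11.22 (Thy1) for fibroblasts, 3.18 (Ptprc) and 5.88 (Cd79a) for blood, and 3.27 (Mc2r) and 5.93 (Nr5a1) for cortex. Thy1 is also known from neurons.

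Diacylglycerol kinases phosphorylate the lipid second messenger diacylglycerol to phosphatidic acid. Phospholipase C releases diacylglycerol at the membrane when receptors are stimulated, and diacylglycerol recruits protein kinase C and other proteins with C1 domains. The kinases end that signal, and their product is itself a signal and the first step in rebuilding phosphoinositides. The family falls into classes by the domains next to a shared catalytic region: the alpha, beta and gamma enzymes have calcium-binding EF hands, delta and eta have a pleckstrin homology domain, zeta and iota have ankyrin repeats, and epsilon and theta each stand alone. In neuroendocrine cells, diacylglycerol also primes secretory vesicles through the Munc13 proteins.

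The sequence before the start of 3 of these genes is shown for their directions in induced cells with DMSO. Against non-induced cells Dgkh and Dgka both lay lower there, whereas Dgkd, the closest relative of Dgkh, lay slightly higher. The Dgka and Dgkd differences did not pass the test, and the sequence of Dgkz, which passed, is not shown. Each run is the 250 bases upstream of the annotated start, 5′ to 3′ on the gene's own strand, from the RefSeq table of the rat assembly GRCr8, in which all 9 symbols matched. Dgkh is on the minus strand at chr15:60559778-60560027. Dgkd is on the plus strand at chr9:95964257-95964506, and Dgka is on the minus strand at chr7:1759570-1759819. Capitals mark matches on either strand to the motifs searched, which were the E-box CACGTG, the GC box GGGCGG, the cAMP response element TGACGTCA and its core TGACG, the AP-1 site TGANTCA, the TATA box TATAAA and the CCAAT box. The core lies within the full element.
Dgkh: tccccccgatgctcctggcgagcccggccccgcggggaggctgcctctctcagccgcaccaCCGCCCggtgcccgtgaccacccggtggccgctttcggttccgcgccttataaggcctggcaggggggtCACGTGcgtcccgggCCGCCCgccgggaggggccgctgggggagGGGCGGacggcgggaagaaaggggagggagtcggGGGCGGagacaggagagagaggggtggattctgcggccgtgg
Dgkd: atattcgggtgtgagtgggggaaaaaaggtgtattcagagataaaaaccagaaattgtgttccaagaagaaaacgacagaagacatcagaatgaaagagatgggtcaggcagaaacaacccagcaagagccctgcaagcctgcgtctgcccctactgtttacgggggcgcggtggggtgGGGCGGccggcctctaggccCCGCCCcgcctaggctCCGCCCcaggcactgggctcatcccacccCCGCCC
Dgka: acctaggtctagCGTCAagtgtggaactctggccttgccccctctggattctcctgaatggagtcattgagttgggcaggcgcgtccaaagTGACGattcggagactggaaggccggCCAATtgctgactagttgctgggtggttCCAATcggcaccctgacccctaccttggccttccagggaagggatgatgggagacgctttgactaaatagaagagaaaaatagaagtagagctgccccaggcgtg
The Dgkh window held 1 E-box, found in 5.59% of 33469 windows of the same length in the table, and 4 GC boxes, a motif present in 30.5% of windows. Its GC content was 75.6%, against a median of 51.2% over all windows. The Dgkd window also held 4 GC boxes but no E-box. The Dgka window held no GC box and no E-box, with 2 CCAAT boxes (present in 34.0% of windows) and 2 cores of the cAMP response element (present in 18.2%). Among the other members the Dgkq window alone held an E-box. These matches are descriptions of the letters and not evidence of binding.

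Dgkh (feature TC1500002126.rn.1) was lower on every array of induced cells than on any array of non-induced cells. Its level was 7.90, 7.42 and 7.69 with compound 6, 7.32, 7.20 and 7.21 with compound 3, and 7.58, 7.45 and 7.37 in induced cells with DMSO, against 8.94, 8.77 and 8.82 in non-induced cells. The means were 7.67 ± 0.24, 7.24 ± 0.07, 7.47 ± 0.11 and 8.84 ± 0.09 in the same order (SD, n = 3 each). The groups with compound 3 and with DMSO did not overlap, nor did those with compound 6 and with compound 3. The compound 6 arrays, from 7.42 to 7.90, overlapped the DMSO range of 7.37 to 7.58 and reached above it. Induced cells with DMSO differed from non-induced cells by -1.38 ± 0.10 log2 units (SE, 95% interval -1.61 to -1.15), a level 0.385 times that of non-induced cells. Leaving out any single array kept this difference between -1.43 and -1.33. Dgkh was chosen for this difference, so the SE, interval and range describe these arrays and give it no support. The arrays with a compound lay at a difference of -1.17 ± 0.10 (compound 6) and -1.60 ± 0.10 (compound 3) from the same non-induced arrays, so these 3 differences share their controls. In such bulk RNA, fewer cells of a kind and less RNA per cell cannot be told apart. Over its 12 arrays Dgkh ranged over 1.74 log2 units, and the other 6 members that passed the filter ranged over 0.31 to 0.59. The wider range of Dgkh follows from its choice for a large difference between these groups.

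**Figure D1:**
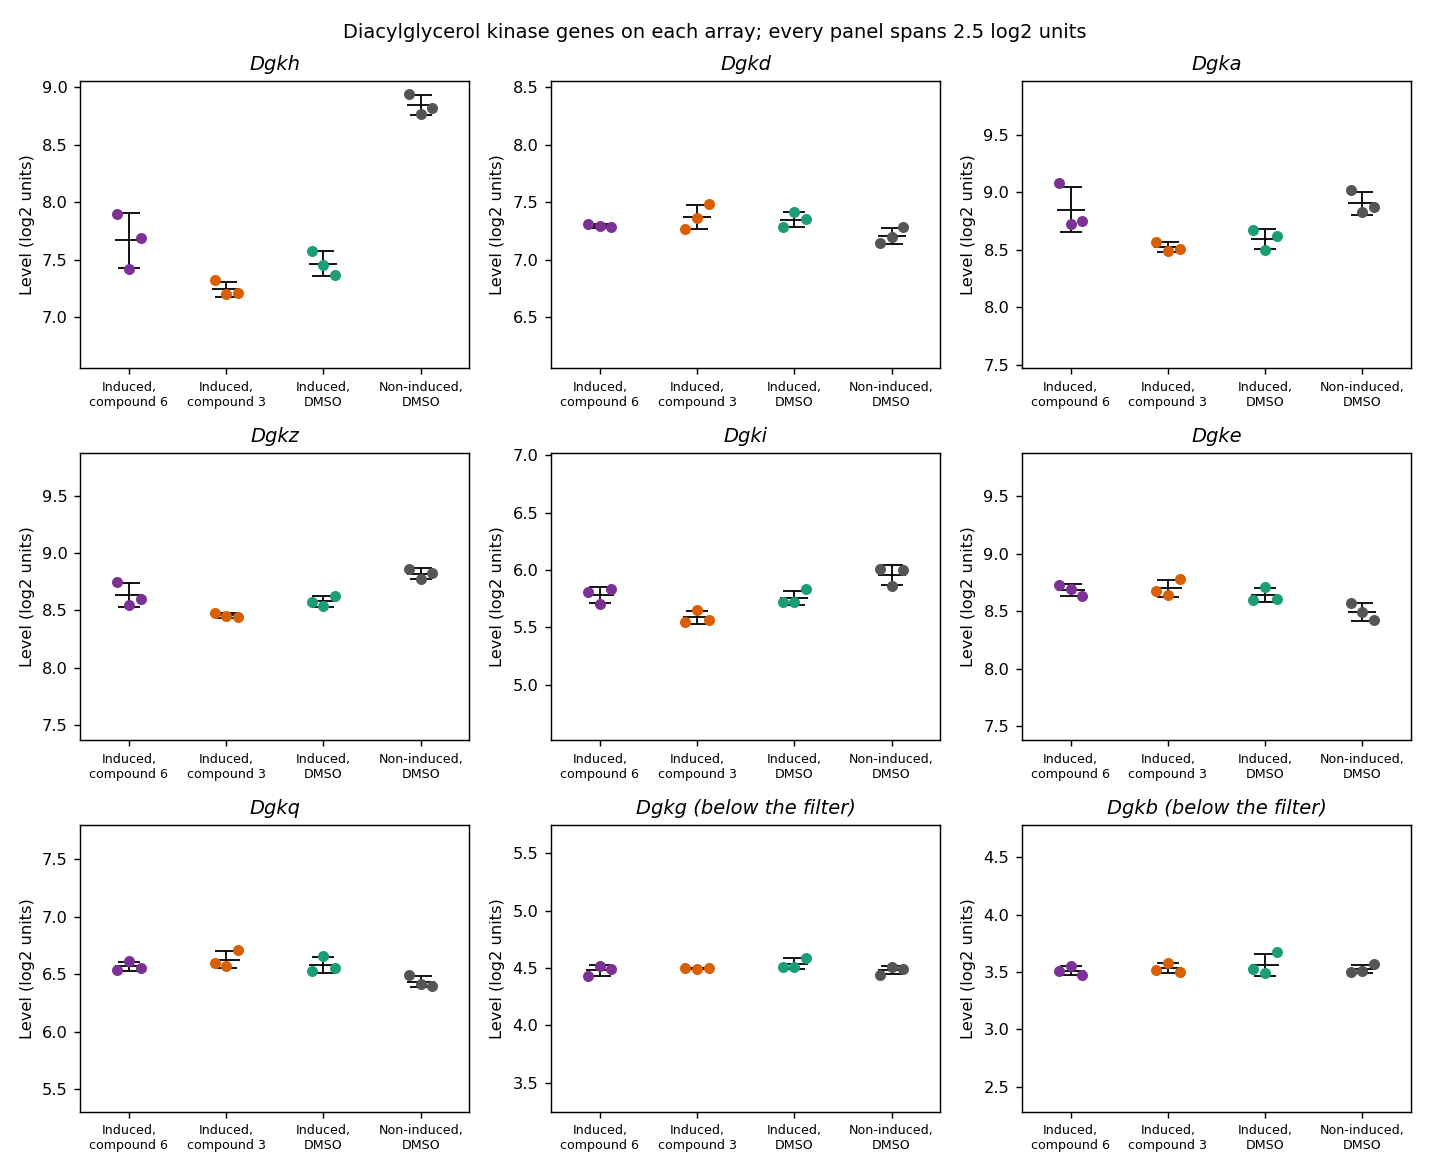
Level of each diacylglycerol kinase gene in log2 units on every array, by group, with group mean and SD (bars, n = 3). All panels span the same height, so the lower level of Dgkh on the 9 induced arrays, against 8.77 to 8.94 in non-induced cells, can be set beside the small differences of the other genes.

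Dgkd encodes the delta enzyme, which shares its domain layout with eta. It did not share the Dgkh pattern. Its level was 7.28, 7.41 and 7.35 in induced cells with DMSO, against 7.14, 7.20 and 7.28 in non-induced cells. The groups touched at 7.28, and the difference of 0.14 ± 0.06 did not pass (limma, adjusted p = 0.212). With compound 6 Dgkd lay at 7.31, 7.29 and 7.28, and with compound 3 at 7.27, 7.36 and 7.48.

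Dgkz, Dgka and Dgki also lay lower after induction, by much smaller amounts than Dgkh. Dgkz encodes the zeta enzyme, which can enter the nucleus, and it fell by 0.24 ± 0.06 log2 units (95% interval -0.36 to -0.12, limma adjusted p = 0.0195). Its level was 8.57, 8.54 and 8.63 in induced cells with DMSO, against 8.86, 8.77 and 8.83 in non-induced cells, without overlap. Its call was lost without induced DMSO 2 (adjusted p = 0.0817), non-induced 1 (0.0608) or non-induced 3 (0.0731), at differences of -0.22 to -0.235.

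Dgka encodes the alpha enzyme, known from T cells as a brake on diacylglycerol signalling. Its level was 8.67, 8.50 and 8.62 in induced cells with DMSO, against 9.02, 8.83 and 8.87 in non-induced cells. The groups did not overlap, but the difference of -0.31 ± 0.09 did not pass (adjusted p = 0.0578). It passed without compound 6 array 1 (adjusted p = 0.0133), which bears on this comparison through the shared estimate of spread, or without induced DMSO 1 (0.0447). Dgki, which encodes the iota enzyme of the zeta class, had levels of 5.72, 5.72 and 5.83 in induced cells with DMSO, against 6.01, 5.86 and 6.00 in non-induced cells. These did not overlap either, and the difference was -0.20 ± 0.06 (adjusted p = 0.0603). It passed without induced DMSO 3 (0.0495) or non-induced 2 (0.0404).

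Dgke and Dgkq lay slightly higher. Dgke encodes the epsilon enzyme, which prefers arachidonate-containing diacylglycerol, the form that feeds phosphoinositide resynthesis. Its level was 8.60, 8.71 and 8.61 in induced cells with DMSO, against 8.57, 8.49 and 8.42 in non-induced cells, a difference of 0.15 ± 0.06 that did not pass (adjusted p = 0.158). Dgkq, the gene of the theta enzyme, lay at 6.53, 6.66 and 6.55 in induced cells with DMSO, against 6.49, 6.41 and 6.40 in non-induced cells, a difference of 0.15 ± 0.05 (adjusted p = 0.135). Neither gene's groups overlapped.

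Apart from Dgkh, 1 of 6 members tested passed after induction, Dgkz, against 9.06% of all features tested (4.86% lower and 4.2% higher). All 6 had an unadjusted p under 0.05, as did 21% of all features, and 5 of the 6 had groups that did not overlap, as did 22.7%. Of these 6, 3 lay lower and 3 higher, with a median difference of -0.03, beside 0.01 over all features. The features behind these shares were not matched to the members for level. With the filter at the 75th percentile 20% of features were called. Leaving out 1 array gave 0 called members (without induced DMSO 2, non-induced 1 or non-induced 3), 1, or 2 (without compound 6 array 1, induced DMSO 1, induced DMSO 3 or non-induced 2).

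The members below the filter stayed at similar levels throughout. Dgkb encodes the beta enzyme, abundant in striatal neurons of the brain. Its means were 3.51 with compound 6, 3.53 with compound 3, 3.56 in induced cells with DMSO and 3.53 in non-induced cells, within a range of 0.20 over all arrays. Dgkg, the gene of the gamma enzyme, ranged from 4.43 to 4.59. Both means lie under the filter, so neither gene was tested.

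**Figure D2:**
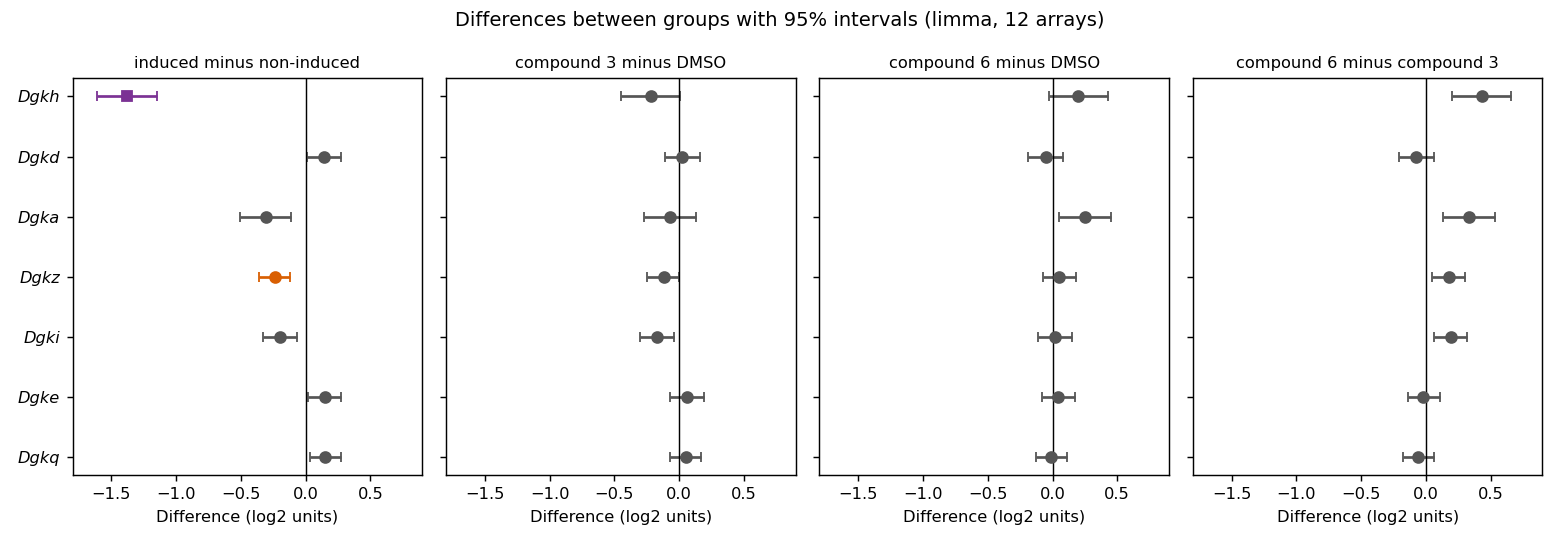
Differences between groups in log2 units with 95% intervals for the 7 members that passed the filter, from the limma model over 12 arrays. The square marks Dgkh at -1.38, which chose the family and was not tested, and the coloured circle marks Dgkz at -0.24, the only member that passed in these 4 comparisons.

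The group means of the members fell into few orders. In each, only the place of non-induced cells relative to induced cells with DMSO follows from the direction after induction. Dgkh, Dgka, Dgkz and Dgki were each highest in non-induced cells, then in induced cells with compound 6, with DMSO and with compound 3. This order held for 15.1% of the 15298 features that lay lower after induction. The order in Dgkd and Dgkq was the opposite, highest with compound 3, then with DMSO, with compound 6 and in non-induced cells, as in 15.8% of the 18701 features that lay higher. Dgke differed from these only in the places of compound 6 and DMSO, an order seen in 13.9% of those features. No pair of the 3 induced groups was separated by the test in any of the 7 genes.

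Compound 6 and compound 3 were given at the same dose for the same time, which makes 1 pair of compounds to compare. Between them Dgkh differed by 0.43 ± 0.10 log2 units, higher with compound 6, with a 95% interval of 0.20 to 0.66 and no overlap, but it did not pass over all features (adjusted p = 0.194). Dgka lay at 9.08, 8.72 and 8.75 with compound 6, against 8.57, 8.49 and 8.51 with compound 3, a difference of 0.33 ± 0.09 (interval 0.13 to 0.53, adjusted p = 0.272). Dgkz had levels of 8.75, 8.55 and 8.60 with compound 6, against 8.48, 8.45 and 8.44 with compound 3. That difference was 0.18 ± 0.06 (interval 0.05 to 0.30, adjusted p = 0.347). Dgki lay at 5.81, 5.70 and 5.83 with compound 6, against 5.55, 5.65 and 5.56 with compound 3, a difference of 0.19 ± 0.06 (interval 0.06 to 0.32, adjusted p = 0.329).

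All 4 of these genes were thus higher on every compound 6 array than on any compound 3 array, and groups without overlap, in either direction, made up 14% of all features. For the remaining members the intervals of compound 6 minus compound 3 held 0. They ran from -0.21 to 0.06 for Dgkd, from -0.14 to 0.11 for Dgke and from -0.18 to 0.06 for Dgkq. In all, 0 of 7 members passed between the compounds, 4 had an unadjusted p under 0.05, and of all features 0.0436% passed and 8.14% had such a p. No setting tried gave a call here, with the lowest adjusted p for Dgkh at 0.0607 with array weights. In every group array 1 was the highest for Dgkh and Dgka. Compound 6 array 1 was also the highest of its group for Dgkz. Without it the differences were 0.312 for Dgkh, 0.212 for Dgka and 0.118 for Dgkz.

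Set against DMSO in induced cells, neither compound gave a call among the members. Dgkh lay 0.22 ± 0.10 lower with compound 3 (difference -0.22, interval -0.45 to 0.01, adjusted p = 0.697) and 0.20 ± 0.10 higher with compound 6 (interval -0.03 to 0.43, adjusted p = 0.883). The Dgkh groups with compound 3 and DMSO did not overlap, as for 3 of the 7 members and 9.94% of all features. Dgki lay at a difference of -0.17 ± 0.06 with compound 3 (adjusted p = 0.541), and Dgka at 0.25 ± 0.09 with compound 6 (adjusted p = 0.875), both without overlap. Dgka was the 1 member without overlap for compound 6, against 8.04% of features. The Dgka value was 0.138 without compound 6 array 1, and the Dgkh value with compound 6 was 0.0883 without that array and 0.328 without compound 6 array 2. For compound 3 0 of 7 members passed and 2 had an unadjusted p under 0.05, against 0.0232% and 7.29% of all features. For compound 6 the counts were 0 and 1, against 0.00291% and 5.66%. These comparisons share the DMSO arrays with the induction comparison.

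In induced cells with compound 3, 5 of the 6 members other than Dgkh passed against non-induced cells, 3 lower and 2 higher. Of all features 15.2% passed (6.82% lower and 8.34% higher). The groups of 5 of the 6 did not overlap, as for 30.3% of features, and all 6 had an unadjusted p under 0.05, as had 25.8%. Dgkz fell by 0.36 ± 0.06 (adjusted p = 0.00107), Dgki by 0.37 ± 0.06 (0.00143) and Dgka by 0.38 ± 0.09 (0.0143), while Dgke rose by 0.21 ± 0.06 (0.0314) and Dgkq by 0.19 ± 0.05 (0.0333). Dgkd lay at 0.16 ± 0.06 (0.104). The calls of Dgkz and Dgki held with each array left out. That of Dgka was lost without compound 3 array 2 (0.05), compound 3 array 3 (0.0511) or non-induced 1 (0.0527). Those of Dgke and Dgkq were lost without compound 3 array 1 or 3 or non-induced 2 or 3, with adjusted p from 0.0621 to 0.135, so the count ran from 2 (without compound 3 array 3) to 5. The Dgke and Dgkq calls were also lost without the filter, after median scaling or cyclic loess and with the 2 groups' arrays alone. That of Dgkq was lost after quantile normalisation as well.

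With compound 6, 0 of the 6 passed against non-induced cells by limma and 4 had an unadjusted p under 0.05, where 7.68% of features passed and 19.2% had such a p. The groups of 4 of the 6 did not overlap, as for 27.3% of features. Dgkz lay at -0.19 ± 0.06 (adjusted p = 0.069), Dgki at -0.18 ± 0.06 (0.106) and Dgke at 0.19 ± 0.06 (0.0723). Without compound 6 array 1 Dgkz passed, at -0.245 (0.0247). Dgka averaged 8.85 ± 0.20 with compound 6 and 8.91 ± 0.10 in non-induced cells, a difference of -0.06 with an interval of -0.26 to 0.14. It was -0.172 without compound 6 array 1 and 0.00833 without compound 6 array 2. All these comparisons use the same non-induced arrays.

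The mean level of the chromaffin markers was, like Dgkh, lower on each induced array than on any non-induced one. The mean level over the 9 measured markers was 9.61 to 9.89 with compound 6, 8.87 to 9.43 with compound 3 and 9.54 to 9.80 in induced cells with DMSO, against 10.33 to 10.49 in non-induced cells. After induction 7 of the 9 fell and 1 rose, with a median difference of -0.94, where 4.86% of all features fell and 4.2% rose. The one that rose was Gata3, a transcription factor (0.26 ± 0.07, adjusted p = 0.0471), and Th, tyrosine hydroxylase, did not pass (-0.64 ± 0.25, adjusted p = 0.166). Against the same non-induced cells 8 fell and 1 rose with compound 3, where 15.2% of all features were called. With compound 6, 6 fell and 0 rose, where 7.68% were called. The markers were not matched to all features for level. Compound 6 array 1, at 9.89, was the highest of the 9 induced arrays for these markers as it was for Dgkh. In every group array 1 had the highest mean of these markers. The part of these markers in the kinase values was not tested. The list means over the 12 arrays ranged from 5.46 to 5.65 for glia, 5.46 to 5.67 for fibroblasts, 4.59 to 4.69 for blood and 4.58 to 4.72 for adrenal cortex. After induction 1 gene of these lists passed, Thy1, which fell by 0.33 ± 0.07 (limma adjusted p = 0.0099). It averaged 11.19 with compound 6, 10.80 with compound 3 and 11.27 in induced cells with DMSO, against 11.60 in non-induced cells. Induced DMSO 3 stood somewhat apart in overall signal, with a 95th percentile of 10.09 where the other arrays had 10.18 to 10.32. Without it the Dgkh difference after induction was -1.33 and that of Dgkz -0.265.

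Genes with profiles most like that of Dgkh were looked for among 15306 named genes, with Pearson correlation over the 12 arrays as the measure. The highest were Zmiz1 (0.989), a transcriptional coregulator, Vav2 (0.988), Utp15 (0.987), a factor in ribosomal RNA processing, Cyth3 (0.987), an exchange factor for ARF GTPases, and LOC102549694 (0.986). Zmiz1 averaged 8.23 with compound 6, 8.05 with compound 3 and 8.18 in induced cells with DMSO, against 8.77 in non-induced cells. The most opposite were Gabarapl1 (-0.981), Sparc (-0.981) and Mccc2 (-0.980), of which Sparc, a matrix glycoprotein, lay 1.64 higher after induction. Over all 12 arrays these values mostly record the step between induced and non-induced cells.

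Within the 9 induced arrays alone the most alike were Ptbp3 (0.978), an RNA-binding splicing regulator, Sema6d (0.974), an axon guidance ligand, Lef1 (0.958), a transcription factor of the Wnt pathway, Sin3a (0.956), a corepressor scaffold, and Ppp2r5a (0.951), a phosphatase subunit. No gene was among the top 5 over both sets of arrays. Of the family, Dgka and Dgkz correlated with Dgkh at 0.894 and 0.884 over these 9 arrays and Dgki at 0.705, whereas Dgkd, Dgke and Dgkq lay at -0.493, -0.074 and -0.561. Arrays of 1 group share their treatment, and array 1 was the highest of each group for both Dgkh and Dgka. These values therefore describe the profiles and carry no test, and the share of all genes reaching them is not given here.

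**Figure D3:**
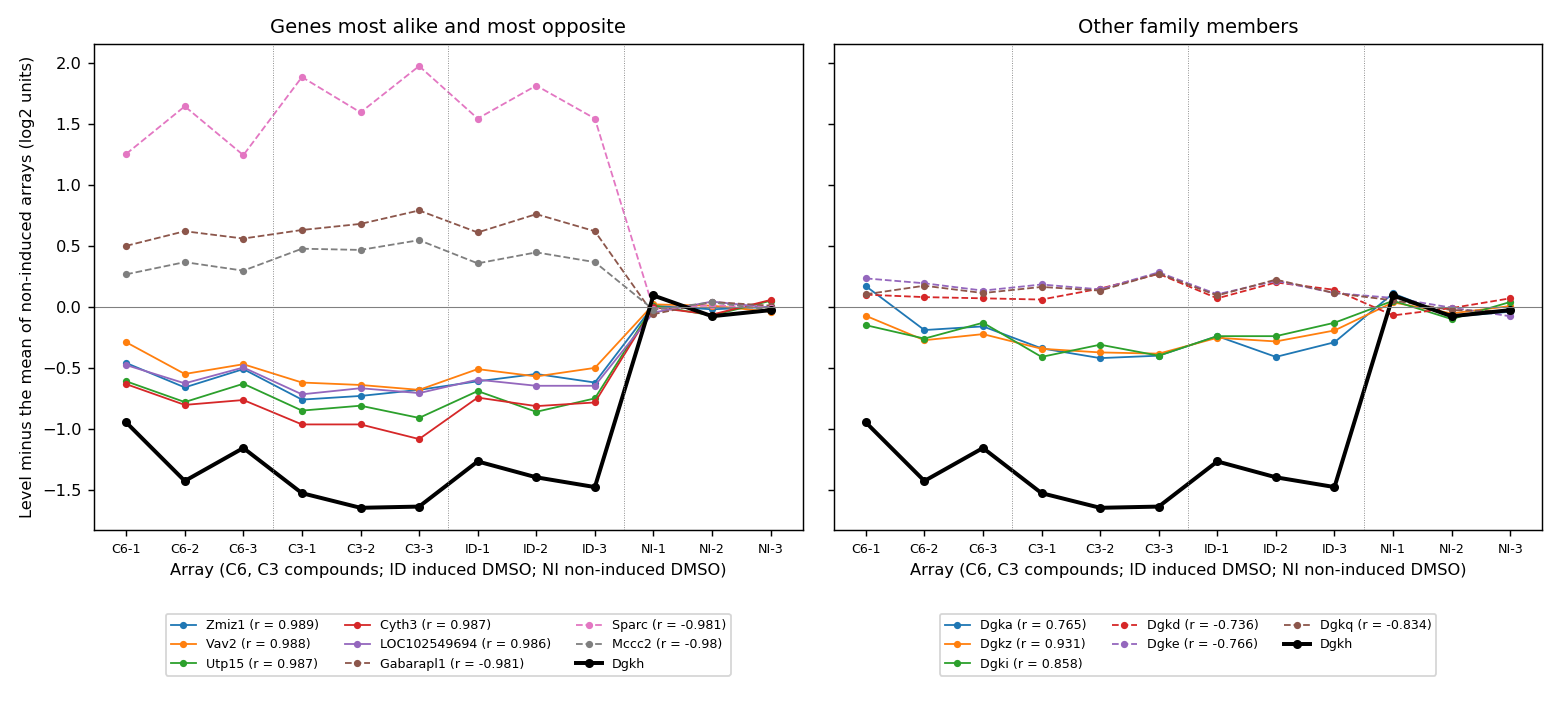
Level on each array minus the mean of the 3 non-induced arrays, in log2 units, for Dgkh (thick line) with the genes most alike and most opposite (left) and the other family members (right). Dashed lines are genes with a negative correlation with Dgkh, and the genes most alike follow it at a smaller scale than its own difference of -1.38.

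Most genes listed for diacylglycerol turnover and signalling, related lipid kinases and the RAF-MEK-ERK module did not pass the test. Of 75 listed genes 59 passed the filter, and after induction 3 rose and 4 fell, which is 11.9% called, against 9.06% of all features. Their median difference was 0.04. The listed genes were not matched to all features for level. Among the phospholipases C, which release diacylglycerol, Plcb4 fell by 0.27 ± 0.06 (adjusted p = 0.0105) and was the only one of 8 that passed. Its mean was 7.95 in induced cells with DMSO, against 8.22 in non-induced cells.

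Of 5 measured diacylglycerol-responsive protein kinases C, 2 fell and 0 rose. Prkce, the epsilon isoform, ranged from 7.58 to 7.66 in induced cells with DMSO, against 7.87 to 7.93 in non-induced cells, and fell by 0.26 ± 0.06 (adjusted p = 0.0161). Prkca, the alpha isoform, fell by 0.25 ± 0.06 (adjusted p = 0.0155), with 8.81 to 8.89 in induced cells with DMSO, against 9.08 to 9.14 in non-induced cells. Prkce was lost without non-induced 3 (0.0716) and Prkca without non-induced 2 (0.0527). Of 6 other C1-domain effectors, which include the Munc13 gene Unc13a at -0.11 (adjusted p = 0.385), 0 passed.

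Of 5 genes of other enzymes that consume diacylglycerol or, for Mgll, its monoacylglycerol product, 1 rose. This was Daglb, a diacylglycerol lipase that yields the endocannabinoid 2-arachidonoylglycerol, by 0.21 ± 0.05 (limma adjusted p = 0.015). The Daglb call was lost without induced DMSO 2 (0.0645), non-induced 2 (0.06) or non-induced 3 (0.0683). It was also lost without the filter (0.0565) and in a fit of the 2 groups' arrays alone (0.0827). Of 15 genes that carry phosphatidic acid back to PIP2 2 rose, the phosphatidylinositol 4-phosphate 5-kinases Pip5k1a (0.24 ± 0.05, adjusted p = 0.00928) and Pip5k1b (0.22 ± 0.04, adjusted p = 0.00764). Both calls were lost in a fit of the 2 groups' arrays alone (0.0649 and 0.0674). Of 8 phosphatases and sphingomyelin synthases that form diacylglycerol 0 passed, and the 1 phospholipase D gene that passed the filter, Pld2, lay at -0.14 without a call. Among 5 related lipid kinases Cerk, the ceramide kinase, fell by 0.37 ± 0.05 (adjusted p = 0.000822), at 9.27 to 9.43 in induced cells with DMSO, against 9.73 to 9.75 in non-induced cells. Of 6 genes of the RAF-MEK-ERK module, which DGK eta is known to assist in human cell lines, 0 passed.

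In the compound comparisons with DMSO, and between the compounds, 0 of these 59 genes passed, with median differences of -0.02 (compound 3), 0.00 (compound 6) and 0.01 (compound 6 minus compound 3). Against non-induced cells 19 were called with compound 3 and 7 with compound 6, where 15.2% and 7.68% of all features were. These are 32.2% and 11.9% of the 59, which were not matched to all features for level. Whether the list exceeds features of like level was not tested.

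**Figure D4:**
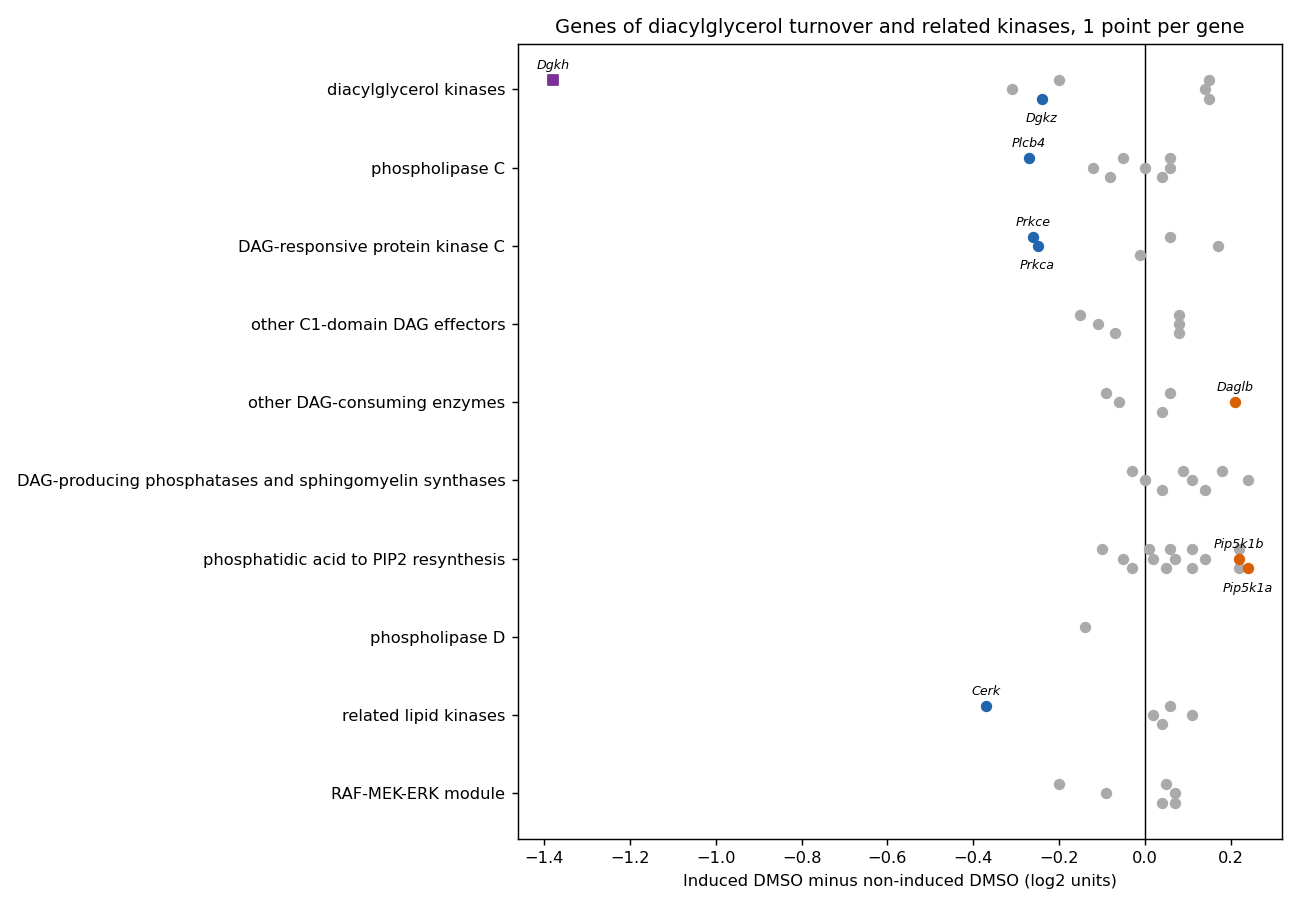
Difference between induced and non-induced cells with DMSO, in log2 units, for the diacylglycerol kinases and 59 genes of diacylglycerol turnover and signalling, related lipid kinases and the RAF-MEK-ERK module, 1 point per gene, grouped by role. Blue points fell, orange points rose, grey points did not pass, and the square is Dgkh at -1.38, while all other points lie between -0.37 (Cerk) and 0.24 (Pip5k1a).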

How the data were processed

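Total RNA, 250 ng per sample, was labelled with biotin and hybridised to 12 Affymetrix rat transcriptome arrays, 1 sample each, per the labels' protocols. The deposited values are log2 expression summaries, made by the authors with Affymetrix Expression Console and RMA per the submitters' processing notes, with versions and options not given in the sources used here. They run from 0.95 to 13.82. The precision is limited by the number of arrays.

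Of 70580 features 1738 controls were left out, and 34422 with a mean at or above 4.63 were kept. Of the features that are not controls 23446 carried 1 gene symbol in the platform annotation, 505 several and 44891 none. A model of 4 group means was fitted to all 12 arrays with limma 3.58.1 in R 4.3.3 (eBayes with no intensity trend, 8 residual degrees of freedom, prior 3.27), and p-values were Benjamini-Hochberg adjusted over all features kept, with calls under 0.05. The model was also run on simulated data with independent normal noise, and its recovery of differences as small as those of the members is not given here. Every member was named, with values by array for those kept. So were the 5 most alike and 3 most opposite genes to Dgkh over 12 arrays and the 5 most alike over 9. Of each pathway list the called genes with the largest differences were named, up to 3 in each direction, along with genes named here after their values were seen (Unc13a, Pld2). The members and lists were chosen with earlier results of these data known. Alternatives were the filter, 3 scalings, the prior, array weights, a replicate block, the arrays used, each array left out and the averaging of a gene's features. Promoter sequences came from RefSeq (GRCr8). Python 3.11.15 and matplotlib 3.10.9 drew the figures.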

Additional observations from a re-analysis of the deposited data

How the results depend on the processing

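The Dgkh difference after induction ran from -1.43 to -1.33 over 22 alternatives. The number of other members called after induction, 1 as reported, was 0 without the filter and with the arrays of the 2 groups alone. It was 2 with the filter at the 75th percentile, median scaling, quantile normalisation, the intensity trend and the replicate block, 3 after cyclic loess and 5 with array weights, and leaving out 1 array gave 0 to 2. For compound 3 against non-induced cells the count of 5 became 3 without the filter, at the 75th percentile, after median scaling or cyclic loess and with 2 groups alone, and 2 to 5 with 1 array left out. For compound 6 against non-induced cells the count of 0 became 2 at the 75th percentile and with the intensity trend, 1 after quantile normalisation and with array weights, and 0 to 1 with 1 array left out. At the 75th percentile Dgki and Dgkq fell below the filter and were no longer tested, which accounts for the 2 fewer calls with compound 3. The cause of the other shifts was not tested. The comparisons of either compound with DMSO and of the compounds with each other gave 0 members in all 22 alternatives. No called member changed direction in them. Deviations of same-numbered arrays correlated over 0.1 in 10 of 18 pairs (median 0.113), against 6 of 36 pairs with different numbers (median -0.099). Deviations were taken from each group's own mean. Values above 0 for same-numbered arrays therefore go with values below 0 for the others, and these medians are not independent. Of the arrays, 6 of 12 correlated best with their own number, and the count to be reached without pairing was not worked out. Pairs of arrays numbered 1 ran from 0.219 to 0.452, those numbered 2 from -0.13 to 0.263 and those numbered 3 from -0.169 to 0.398. The likeness was thus mainly among arrays numbered 1. The labels do not call the numbers pairs, so the main model left the numbers out. With the replicate block Dgka passed after induction (adjusted p = 0.0118) and Dgkq was lost for compound 3 against non-induced cells. Over all features 3120 were called after induction, 1447 higher and 1673 lower, against 787 and 1761 after median scaling, 2980 and 2535 with array weights, 467 and 1106 with 2 groups alone, 786 and 1286 without the filter, and 1815 to 5165 in all with 1 array left out. The alternatives for pathway genes and for the compounds against non-induced cells were added after seeing the data. Dgkb and Dgkg lay below the filter, where signal limits any comparison.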
